A study of Mus musculus with 6 samples.

Results

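The transcripts described here are known by the accession number of a sequenced cDNA or EST. They were measured in total brain RNA of male C57BL/6 mice aged 9 months, 3 of them wild type (WT) and 3 APP/PS1, that the labels call biological replicates. Members were the rows of the deposited value table whose probe carried a sample transcript name outside the array maker's numbers, the lincRNA catalogues and exons, the ultraconserved elements, and the Ensembl, UCSC and RefSeq names. The rule found 874 rows of 48436. Each row is 1 probe, each accession has 1 probe, and the rule used no measured value. APP/PS1 names a mouse line that carries transgenes for amyloid precursor protein and presenilin 1 and forms amyloid plaques in the brain. The labels do not give its promoters, the cells that express the transgenes, or whether the WT animals were littermates.

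A cDNA is a DNA copy of an RNA taken from a tissue. An expressed sequence tag (EST) is a single sequencing read from the end of such a copy, and large EST collections were used to find transcripts before genomes were annotated. Accessions that were never merged into a curated gene model often come from rarely made or non-coding transcripts, from intronic or antisense RNA, or from alternative ends of known genes. The first letters of an accession tell which archive issued it. AK is a prefix of the Japanese archive DDBJ for cDNAs, among them the RIKEN mouse full-length collection. AU, AV, BB, BP, BY, C and CJ are DDBJ prefixes for ESTs. BC belongs to the Mammalian Gene Collection of full-length clones. CR and BX are issued by the European archive, and most other prefixes here are GenBank ESTs.

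None of the 874 accessions was paired with a gene by the files or by the gene table used here (GRCm38.p6, which holds 12683 accession-like synonyms). The transcripts are therefore described by accession, and no function, sequence or position is given for any of them. None of 43 marker genes listed for neurons, astrocytes, oligodendrocytes, microglia, endothelium, choroid plexus and blood had a probe tied to its symbol. The brain label and a change in cell composition were thus not checked. In whole tissue, fewer cells of a type and less RNA per cell cannot be told apart.

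WT replicates 2 and 3 were close to identical. Over 24161 bright probes they scattered robustly by 0.0629 on the log2 scale. Every other pair within a genotype gave 0.0839 to 0.105, and repeated spots of 1 probe gave a median of 0.0753. They were averaged and counted as 1 sample, which leaves 2 WT samples (n = 2) against 3 from APP/PS1 (n = 3). Scanner files were used for 5 arrays. Those of WT replicates 1 and 2 shared 1 slide and those of the 3 APP/PS1 animals another, and a slide effect and a genotype effect cannot be told apart in any of these comparisons. The median over sample spots of the processed signal was 73.0 to 83.3 on the APP/PS1 arrays and 58.6 and 59.4 on the WT arrays. The part of array brightness in the results was not tested.

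By source, 455 of the 874 transcripts were GenBank ESTs, 227 were DDBJ ESTs, 130 were AK cDNAs, 33 were European records, 16 were BC clones and 13 were direct submissions. They carried 42 prefixes. The largest were AK with 130, BY with 92, AA with 55, AI with 54 and BB with 49 transcripts, and 26 prefixes had under 20 each. Their log2 values are probe signals. The signal of a probe depends on its sequence as well as on the amount of RNA, so levels describe the probes and do not rank the transcripts.

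Most of these probes gave a clear but modest signal. The median log2 value was 6.22, with quartiles of 4.64 and 8.26, beside a median of 7.05 over all rows. Of the 874, 602 (68.9%) were well above background on all 5 scanned arrays, beside 79.2% of all rows, and 37 (4.23%) on none, beside 2.17%. The value table had already lost the faintest: 416 of 1290 GenBank-named probes on the array were not in it, and 365 of those were well above background on no array and 49 on 1. At the other end, 75 transcripts had a mean above 12 and 36 a mean above 14. Detection moved with the array. WT replicates 1 and 2 and APP/PS1 replicate 1 measured 78.0%, 75.7% and 76.5% of these transcripts well above background, and APP/PS1 replicates 2 and 3 measured 90.2% and 92.9%.

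**Figure D1:**
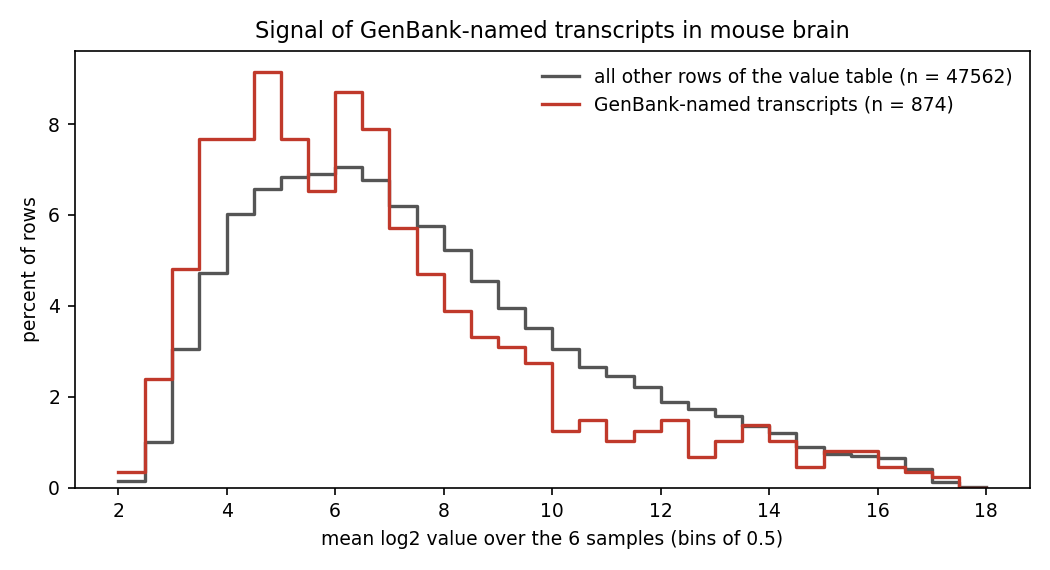
Share of rows (percent, vertical axis) by mean log2 value over the 6 samples (horizontal axis, bins of 0.5), for the 874 GenBank-named transcripts and the 47562 other rows. The GenBank-named probes lie further to the left, with a median of 6.22 against 7.08, and keep a tail of 36 probes above 14.

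The prefixes differed in where their probes lay. The GenBank EST probes had a median of 5.65, and 63.5% of them were well above background on all 5 arrays. AK probes had a median of 7.26, with 77.7% on all 5 arrays and none below background everywhere. AV probes had a median of 8.86 over 39 transcripts, and AI, CN and BI probes had medians of 4.99, 4.72 and 4.67. The 12 AK accessions numbered above 180000, set apart after their values were seen, had a median of 14.67 and a range from 3.92 to 16.93. AK201860, at 3.92, was the dimmest and was not well above background on either WT array; the other 11 were so on all 5 arrays. The other 118 AK accessions were split at 100000, with medians of 6.93 for 68 lower and 7.32 for 50 higher numbers.

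Of the 5 brightest members none changed by 2-fold. AV131371 had values of 17.51, 17.50 and 17.46 in WT and 17.47, 17.45 and 17.47 in APP/PS1. Its log2 change was -0.03 ± 0.06 (SE), with groups that overlap and a limma adjusted p of 0.718. BY652007 gave 17.34, 17.36 and 17.36 against 17.01, 17.22 and 17.38, and its change of -0.15 ± 0.13 (SE) did not pass the threshold either (adjusted p = 0.424). Both changed sign with a normexp background correction of the scanner signals, to 0.18 and 0.07, and AV131371 also with quantile normalization, to 0.02.

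BB761138 read 16.83, 16.74 and 16.80 in WT and 17.20, 17.27 and 17.12 in APP/PS1, every APP/PS1 sample above every WT sample. It rose 1.32-fold (adjusted p = 0.0243), and leaving out WT replicate 1 or APP/PS1 replicate 1, 2 or 3 gave adjusted p of 0.0831, 0.0679, 0.0699 and 0.0513. AK215547 fell 1.59-fold, from 17.11, 17.17 and 17.02 to 16.38, 16.45 and 16.46 (adjusted p = 0.00585), and had an adjusted p of 0.0687 with normexp. AK216629 was at 16.92, 16.70 and 16.75 in WT and 17.04, 17.08 and 17.10 in APP/PS1. Its groups did not overlap, but its change of 0.25 ± 0.09 (SE) had an adjusted p of 0.0909. Scanner signals scaled to the 75th percentile put it past the threshold (0.43, adjusted p = 0.0422), while median centring (0.34, 0.0821), quantiles (0.30, 0.0666) and normexp (0.61, 0.0545) did not.

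The design compares the genotypes, and the question put to these transcripts was which of them differ in APP/PS1 brain. Of the 874, 238 (27.2%) passed an adjusted p of 0.05 in limma, beside 30.1% of all 48436 rows tested. Of these 102 rose, or 11.7% of the members beside 14.2% of all rows, and 136 fell, or 15.6% beside 15.9%. The shares lay near the background, so the counts are no result about GenBank-named transcripts as a class. Leaving out WT replicate 1 gave 104 calls, beside 11.8% of all rows, with the lone WT sample assumed to vary like the APP/PS1 samples. Leaving out APP/PS1 replicates 1, 2 and 3 gave 163, 116 and 121, beside 18.9%, 15.3% and 15.8%. With WT replicates 2 and 3 apart, 326 were called, 143 up and 183 down, beside 41.8%, 19.4% and 22.4% of all rows. In the scanner signals scaled to the 75th percentile, 242 of 784 tested members were called, beside 32.7% of all probes there, and the balance turned to 130 rises and 112 falls, beside 18.1% and 14.6%. A normexp background correction, which models the spot background, was run on the median spot signals. It gave 109 calls, 39 up and 70 down, beside 17.2%, 7.37% and 9.85%.

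Most changes were small. The median log2 change was -0.073 over the members and -0.032 over all rows tested, and 90% of the members lay between -0.89 and 0.99. Among the 238 called transcripts the median size was 0.66 (log2), and 102 changed by less than 1.5-fold. Calls of at least 2-fold, 5.63% of all rows, comprised 33 rises (3.78%, beside 3.66% of all rows) and 23 falls (2.63%, beside 1.97%). In 439 members (50.2%, beside 56.3% of all rows) the 3 WT and 3 APP/PS1 values did not overlap. APP/PS1 was higher in 188 of them (21.5% of the members, beside 25.8% of all rows) and lower in 251 (28.7%, beside 30.6%). Overlap was judged on all 6 values, with the near-identical WT replicates 2 and 3 kept apart. Over all members the median absolute difference between samples of 1 genotype was 0.19 for WT replicates 1 and 2 and 0.15 to 0.18 for pairs of APP/PS1 replicates.

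**Figure D2:**
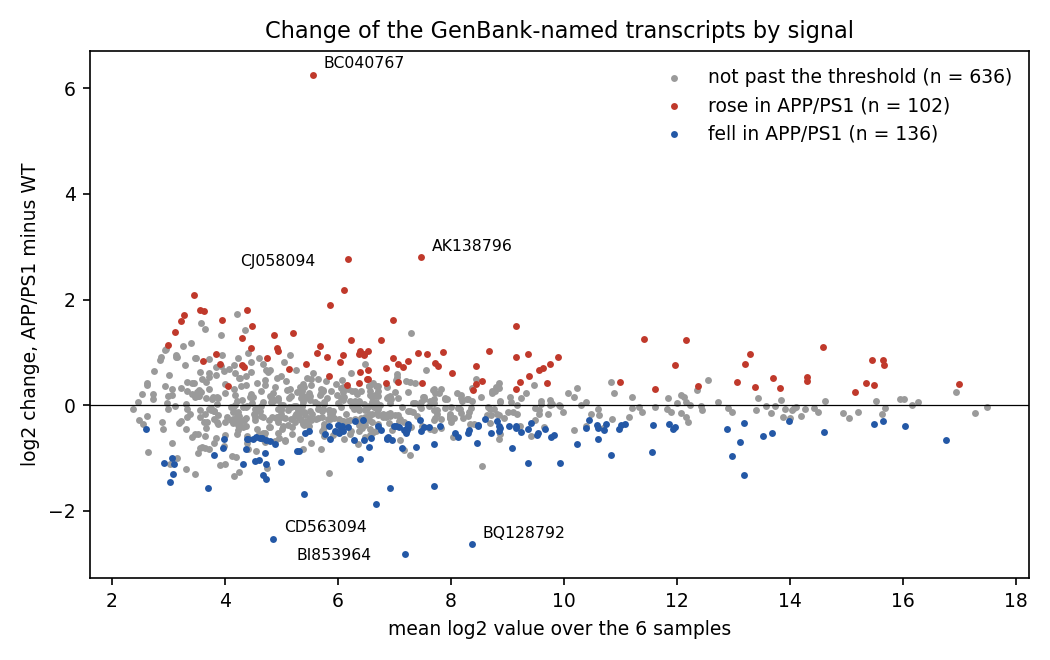
Log2 change (APP/PS1 minus WT, vertical axis) of the 874 transcripts against their mean log2 value over the 6 samples (horizontal axis), 1 point per transcript, coloured by call. BC040767 stands apart at 6.26, and the 2 largest falls, BI853964 and BQ128792, lie at -2.82 and -2.64.

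How often a transcript was called followed its signal. Of the 133 members with a mean of at most 4, 21 (15.8%) were called, and of the 271 between 4 and 6, 48 (17.7%). Between 6 and 8 it was 72 of 236 (30.5%), between 8 and 10 it was 45 of 114 (39.5%), between 10 and 12 it was 21 of 45 (46.7%), and above 12 it was 31 of 75 (41.3%). The other rows gave 15.2%, 19.1%, 32.3%, 40.3%, 41.1% and 37.6% in the same bins. Between 10 and 12, 4 members rose and 17 fell, where 923 of the other rows rose and 1107 fell. Above 12, 18 members rose and 13 fell, where 980 of the other rows rose and 1041 fell. The bins were singled out after their values were seen.

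Among transcripts well above background on all 5 arrays, AK138796 rose most. Its log2 values were 6.09, 6.07 and 6.07 in WT and 8.98, 8.79 and 8.87 in APP/PS1. The 3 WT values were almost equal, though replicates 2 and 3 count as 1 sample. The lowest APP/PS1 sample lay far above all 3. The change was 6.96-fold, 2.80 ± 0.08 (SE) on the log2 scale, with a limma adjusted p of 0.000664. The EST CJ058094 went from 4.69, 4.77 and 5.02 to 7.67, 7.42 and 7.57, again without overlap. It rose 6.78-fold (2.76 ± 0.11 SE, adjusted p = 0.00136). With normexp the log2 changes of AK138796 and CJ058094 were smaller, at 1.78 and 1.02, and both still passed.

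AK137951, a cDNA, had 4.90, 4.96 and 4.85 in WT and 6.66, 6.90 and 6.86 in APP/PS1, and rose 3.74-fold (adjusted p = 0.00195). With normexp its change was 0.39 and did not pass (adjusted p = 0.208). A pair of DV ESTs rose at very different signals. DV645173 was at 6.18, 6.18 and 6.14 in WT and 7.79, 7.78 and 7.79 in APP/PS1, a 3.07-fold rise with hardly any spread within a genotype (adjusted p = 0.00105). DV653038 rose 2.37-fold, from 11.36, 11.70 and 11.65 to 12.79, 12.79 and 12.70 (adjusted p = 0.00552). WT replicate 1 was its lowest sample, and the genotypes stayed apart.

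The GenBank EST BU563586 rose 2.82-fold, with 8.40, 8.51 and 8.33 in WT and 9.90, 9.97 and 9.85 in APP/PS1 (adjusted p = 0.00171). AV570450, a DDBJ EST, went from 10.74, 10.76 and 10.88 to 12, 12.06 and 12.07, or 2.40-fold (adjusted p = 0.00211). CN672059 rose 2.37-fold, from 6.23, 6.14 and 6.01 to 7.30, 7.44 and 7.45 (adjusted p = 0.00347). With normexp CN672059 had a change of 0.51 that did not pass (adjusted p = 0.0648). The other 6 of the 8 rises, all but CN672059 and AK137951, were called in the same direction in each of the 15 other fits run.

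BI853964, a GenBank EST, fell most. It was at 8.65, 8.48 and 8.64 in WT and at 5.77, 6.09 and 5.51 in APP/PS1. The APP/PS1 samples spread more than the WT samples, and the gap between the genotypes was several times that spread. The fall was 7.04-fold (-2.82 ± 0.19 SE on the log2 scale, limma adjusted p = 0.00301). The EST BQ128792 fell 6.24-fold, from 9.76, 9.61 and 9.66 to 6.82, 7.12 and 7.23 (-2.64 ± 0.15 SE, adjusted p = 0.00221). Under normexp the changes were -1.83 and -2.08, and both passed.

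Among AK cDNAs, AK155224 had 7.72, 7.55 and 7.56 in WT and 5.64, 5.97 and 5.65 in APP/PS1, a 3.69-fold fall (adjusted p = 0.00346). AK084660 fell 2.98-fold, from 7.73, 7.76 and 7.67 to 6.31, 6.14 and 5.99 (adjusted p = 0.0034). Both started from a like signal and neither had overlapping groups. The DDBJ EST BB202824 fell 3.21-fold, from 6.09, 6.35 and 6.34 to 4.53, 4.35 and 4.72 (adjusted p = 0.00486).

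CA559477, a GenBank EST, was at 8.52, 8.47 and 8.43 in WT and 6.98, 6.91 and 6.93 in APP/PS1, a 2.92-fold fall (adjusted p = 0.00147). CF425770 was the brightest of the 8 falls. Its values were 13.87, 13.81 and 13.86 in WT and 12.52, 12.55 and 12.50 in APP/PS1, a 2.51-fold fall (adjusted p = 0.00171). BY346886 was the dimmest, at 5.37, 5.29 and 5.21 in WT and 4.59, 3.99 and 4.02 in APP/PS1, and fell 2.16-fold (adjusted p = 0.0246). It had adjusted p of 0.109, 0.0716 and 0.0747 without WT replicate 1 or APP/PS1 replicate 2 or 3. The other 7 falls were called in the same direction in each of the 15 other fits run.

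**Figure D3:**
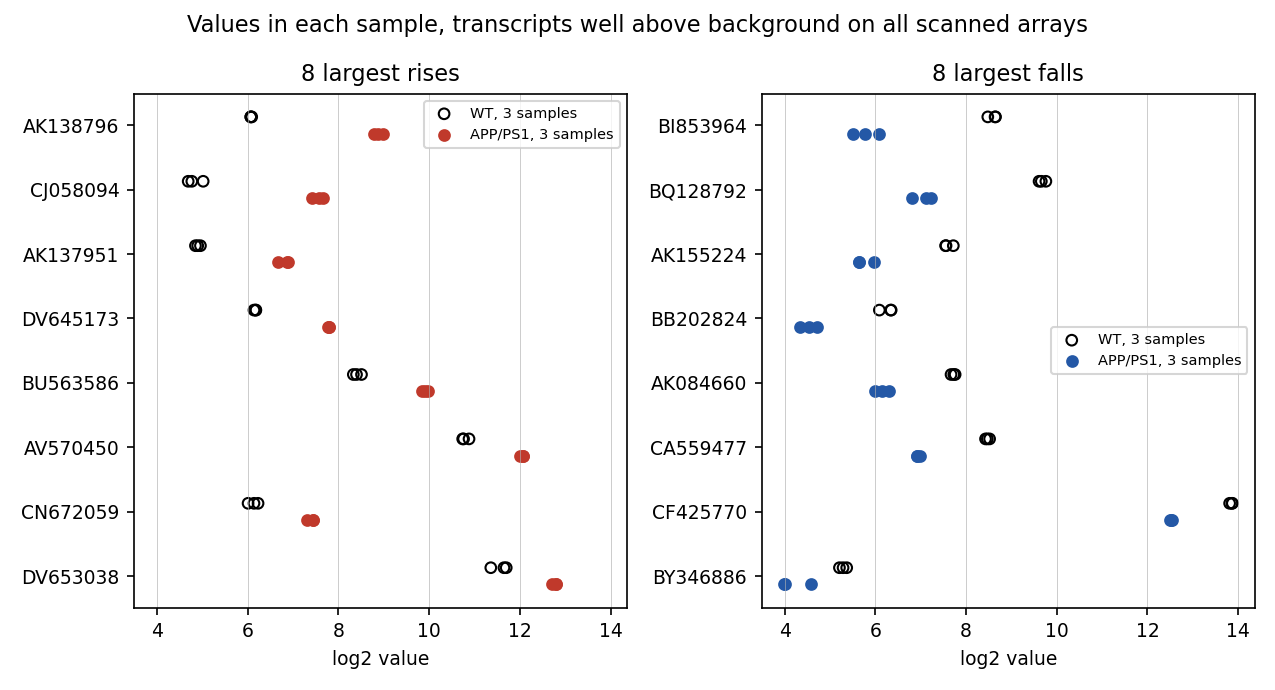
Log2 value (horizontal axis) in each sample for the 8 largest rises (left) and 8 largest falls (right) among transcripts past the threshold, without overlap and well above background on all 5 scanned arrays. Open circles are the 3 WT samples and filled circles the 3 APP/PS1 samples, which lie apart in every row.

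Other transcripts were well above background in 1 genotype only. In 29 members this was APP/PS1, with detection on all 3 of its arrays and neither of the WT arrays (3.32%, beside 3.02% of all rows), and in 1 member it was WT (0.114%, beside 0.12%). For these a bound is given in the processed scanner signals. It is an estimate for that processing alone and no limit under another background correction. It divides the brighter group's mean by a ceiling for the dim group, which on each array is the probe's signal or the lowest signal that counts as well above background, whichever is higher. The bounds of the 29 ranged from 0.927-fold to 20.3-fold with a median of 1.37-fold. They exceeded 1 in 27 members and reached 2-fold in 4. Probes entered the scanner fit if well above background on at least 2 arrays, so these passed through their brighter genotype alone. They were also picked for this contrast, so their scanner adjusted p-values (limma) are descriptions and no separate support.

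BC040767, a BC clone, was at the lowest value of the table in all WT samples, 2.41, 2.44 and 2.43, and at 8.73, 8.60 and 8.73 in APP/PS1. Its bound was 20.3-fold, APP/PS1 higher, with scanner means of -0.17 against -6.57 (log2, relative to the 75th percentile) and a limma adjusted p of 0.000226. Its WT spread of 0.02 (SD) rests on the table's lowest value, so the fitted change of 6.26 is no measure of size. With normexp the log2 change was 2.13 (adjusted p = 0.00941), below the bound, which is 4.34 on that scale.

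AI507368 read 4.52, 3.99 and 4.02 in WT and 5.61, 5.71 and 5.45 in APP/PS1, with a bound of 2.30-fold (scanner adjusted p = 0.00987). CA749839 had 4.17, 3.56 and 2.43 against 5.37, 5.58 and 5.23, with a bound of 2.13-fold (scanner adjusted p = 0.0115). AV320845 had 4.00, 4.59 and 4.87 against 5.42, 5.38 and 5.39, which is a 2.04-fold rise in the table (adjusted p = 0.0334). Its scanner bound, which leaves out WT replicate 3, was 2.13-fold and lies above that. The WT values of CA749839 spread widely, with WT replicate 3 at the table's lowest value. AI507368, CA749839 and AV320845 changed sign with normexp, to -0.09, -0.12 and -0.14, so no lower limit is claimed for any of them. The calls of CA749839 and AV320845 in the value table were also lost without any 1 of the APP/PS1 replicates (adjusted p between 0.0754 and 0.0949), and that of AV320845 without WT replicate 2 (adjusted p = 0.0602).

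In the other direction CD563094 had 6.11, 6.32 and 5.95 in WT and 4.13, 3.55 and 3.09 in APP/PS1. It was above background on both scanned WT arrays and on none from APP/PS1. Its bound was 4.49-fold, APP/PS1 lower (scanner means -5.10 against -2.72, limma adjusted p = 0.0036). With normexp the log2 change was -1.09 (adjusted p = 0.0193), smaller in size than the bound, which is 2.17 on that scale. Without WT replicate 1 its change in the value table was -2.54 with an adjusted p of 0.054.

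**Figure D4:**
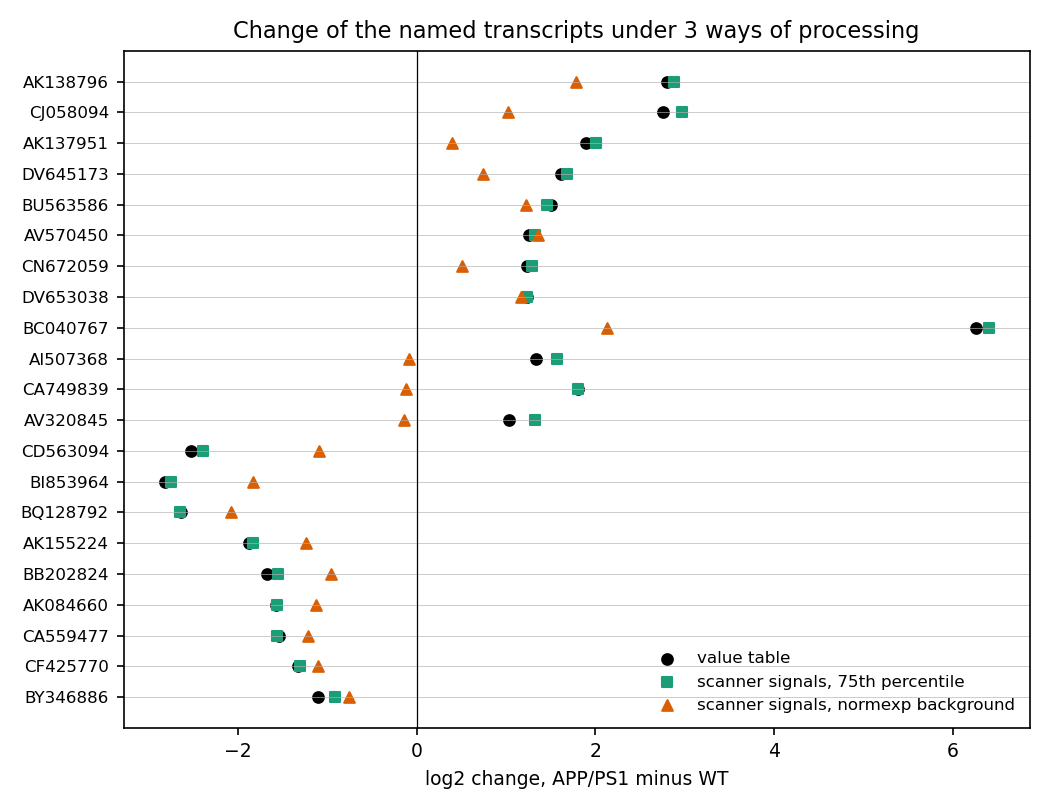
Log2 change (APP/PS1 minus WT, horizontal axis) of the 21 transcripts named for a rise, a fall or signal in 1 genotype, in the value table (circles), the scanner signals scaled to the 75th percentile (squares) and the scanner signals after normexp (triangles). Circles and squares lie together, while triangles lie nearer to 0 for all but AV570450 and below 0 for AI507368, CA749839 and AV320845.

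Calls are given by prefix as a description. The prefixes were picked out after their values were seen, and no difference between prefixes was tested. AK cDNAs gave 47 calls of 130 (36.2%, beside 30.1% of all rows), with 24 rises and 23 falls. The count was 16 without WT replicate 1, 29, 19 and 25 without APP/PS1 replicates 1, 2 and 3, and 18 with normexp. The AK changes ran from -1.88 (AK155224) to 2.80 (AK138796), with a median of -0.08. The 54 AK probes of the array's CUST series gave 14 rises and 7 falls, and the 76 AK probes of the P1 series gave 10 rises and 16 falls. With normexp these became 4 and 6 for CUST and 5 and 3 for P1, so neither lean held there. CUST kept more rises than falls in the other settings, with 15 and 7 at the 75th percentile and 8 and 3 without APP/PS1 replicate 2. P1 did not keep its lean, with 11 and 11 at the 75th percentile and 5 and 3 without APP/PS1 replicate 2.

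The 12 AK accessions above 180000 gave 2 rises and 5 falls (58.3% called, beside 30.1% of all rows). AK188366 fell from 16.15, 16.35 and 16.20 to 15.88, 15.81 and 15.77, a 1.31-fold change (adjusted p = 0.0257), and AK210533 from 15.66, 15.68 and 15.63 to 15.22, 15.31 and 15.36, a 1.28-fold change (adjusted p = 0.027). AK198651 rose 1.34-fold, from 15.10, 15.14 and 15.19 to 15.57, 15.52 and 15.56 (adjusted p = 0.0142). These transcripts were named after their values were seen. All 12 had groups without overlap, beside 56.3% of all rows, and none changed by 2-fold. Of these 12 transcripts, 9 had a mean above 12. Among the 5373 other rows with a mean above 12, 3907 had groups without overlap and 37.6% were called. The part of signal in the counts for these AK accessions was not tested. The count fell from 7 to 1 without WT replicate 1, to 3 without APP/PS1 replicate 1 or 2, and to 2 without replicate 3; normexp gave 2 rises and 0 falls.

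DDBJ ESTs gave 53 calls of 227 (23.3%, beside 30.1% of all rows), with 29 rises and 24 falls. AV had 10 rises and 4 falls among 39 members (35.9%, beside 30.1% of all rows), between -1.05 and 1.26. Its 14 calls became 7 without WT replicate 1, 9, 8 and 8 without APP/PS1 replicates 1, 2 and 3, and 9 with normexp. BY had 10 of each among 92 (21.7% called), and BB 4 of each among 49 (16.3%). The count over all DDBJ ESTs was 27 without WT replicate 1 or APP/PS1 replicate 2, 29 without APP/PS1 replicate 3 and 35 with normexp. GenBank ESTs gave 44 rises and 72 falls among 455, but 58 and 55 in the scanner signals at the 75th percentile, 32 and 22 without WT replicate 1, 32 and 30 without APP/PS1 replicate 2, 29 and 30 without replicate 3, and 11 and 37 with normexp. In the main fit 25.5% of the GenBank ESTs were called, beside 30.1% of all rows. DV had 7 rises and 2 falls among 27 (33.3%), yet its median change was -0.06. Among its members without overlap 7 were higher and 10 lower in APP/PS1, beside 25.8% and 30.6% of all rows. With WT replicates 2 and 3 apart DV had 7 rises and 6 falls, with median centring 7 and 5, with normexp 4 and 0, and without APP/PS1 replicate 2 or 3 it had 5 and 0 or 5 and 1.

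CF had 0 rises and 6 falls among 37 members (16.2% called), CO 0 and 5 among 17 (29.4%), and BQ 0 and 5 among 14 (35.7%). Over all rows 30.1% were called, with 14.2% rising and 15.9% falling. In the scanner signals at the 75th percentile CF had 1 rise and 5 falls, while CO and BQ had 0 and 5. CF falls came to 3 without WT replicate 1 or APP/PS1 replicate 3. CO had 1 fall without WT replicate 1 or APP/PS1 replicate 2, and 2 falls without APP/PS1 replicate 3 or with normexp. Without APP/PS1 replicate 1 CO had 1 rise and 3 falls. BQ had 4 to 6 falls and no rise in each of these settings. European CR records gave 0 rises and 7 falls among 28, with a median change of -0.33. The scanner signals gave CR 3 rises and 6 falls at the 75th percentile, 2 and 6 with median centring, and 0 and 3 with normexp. Leaving out WT replicate 1 or APP/PS1 replicate 2 left 2 CR falls, and leaving out APP/PS1 replicate 1 or 3 left 4 or 3. BC clones gave 3 rises and 4 falls among 16 (43.8%), and the 13 direct submissions 0 and 4 (30.8%). With normexp BC had 1 rise and 2 falls. The direct submissions had 1 fall with normexp or without APP/PS1 replicate 2 or 3.

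**Figure D5:**
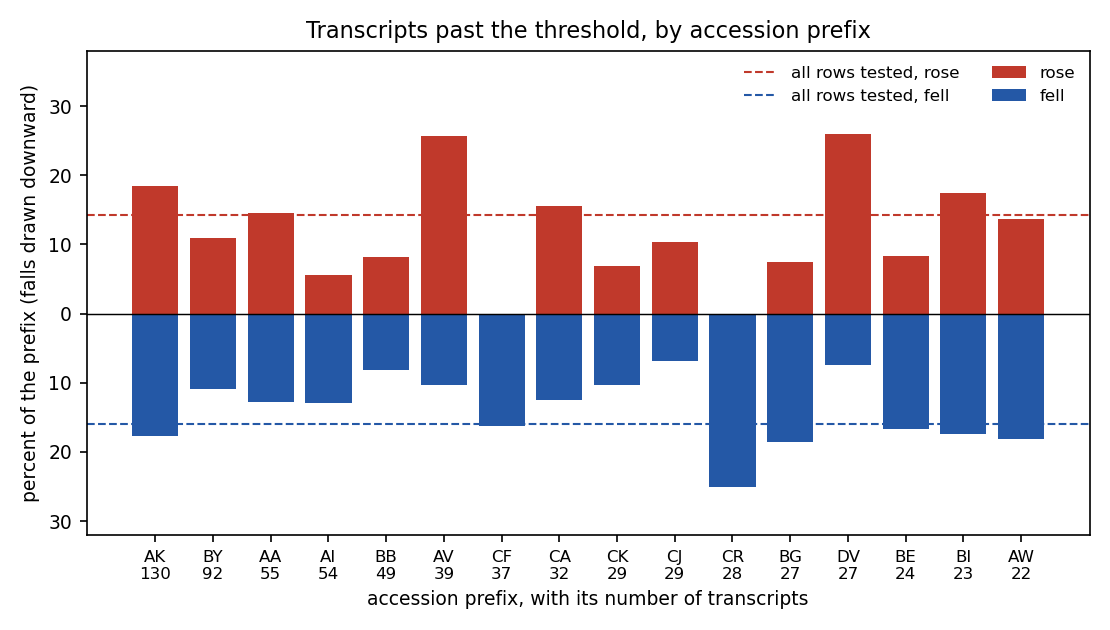
Percent of each prefix that rose (bars upward) or fell (bars downward) past an adjusted p of 0.05, for the 16 prefixes with 20 or more transcripts, whose number stands under the prefix. Dashed lines give the shares over all rows, 14.2% for rises and 15.9% for falls; AV and DV have the tallest upward bars, and CF and CR have none.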

How the data were processed

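Brain RNA of 6 mice was hybridised in 1 colour (Cy3) to Agilent arrays designed on mm9. Per the labels' protocols, RNA was depleted of ribosomal RNA and copied by random priming. The deposited value table holds log2 values with equal quartiles and a median of 7.06 in every column; the authors' steps of normalization and filtering are not given in the sources used here. Every column whose array had a scanner file correlated at 0.999645 or more with the log2 processed signal of that array. Scale and direction were taken from this signal. The column of WT replicate 3, which had no scanner file, was not compared. Scanner files hold spot intensity, per the file headers, from Feature Extraction 11.0.1.1 (submitters' processing notes); those of WT replicate 1 are rounded to 3 digits, and WT replicate 3 entered through the table alone.

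Table rows were tied to probes by spot number. limma 3.58.1 in R 4.3.3 (two-sided, Benjamini-Hochberg) was fitted on all 48436 rows, with WT replicates 2 and 3 averaged, and tested on simulated data. P-values measure the spread between these few arrays, whose number limits precision. Alternatives are given at the end. The normexp fit was run on median spot and background signals with an added offset of 50. The part of this offset in the smaller changes under normexp was not tested. Members, prefixes and rules were chosen with earlier results of these data known. Named transcripts were the 8 largest rises and falls past the threshold, without overlap and well above background on all 5 arrays, up to 4 bounds per direction, and the 5 brightest; exceptions are marked. Same-numbered samples did not deviate together (correlations 0.0504, -0.0796 and 0.0126).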

Additional observations from a re-analysis of the deposited data

How the results depend on the processing

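The count of 238 called members, with 102 rises and 136 falls, stayed within 1.5 times with WT replicates 2 and 3 apart, a trended robust prior, both filters on dim rows and scanner scaling by the 75th percentile, median or quantiles. The filters and scanner fits tested fewer members, so equal counts are not equal shares. Members detected on all arrays gave 238 calls of 602, beside 42.4% of rows there, with 186 of the main calls kept. Members above the table's lowest values gave 239 of 786, beside 33.0%, with 221 kept. The scanner fits tested 784 members. Normexp gave 109 calls (39 rises, 70 falls), 90 of them among the 238 in the same direction. An unadjusted p under 0.05 with 2-fold gave 68 (38 and 30), beside 6.66% of all rows. Leaving out 1 sample gave 104 to 240 calls, 61 to 103 rises and 43 to 139 falls. With the replicate number as a block the count was 263 (118 and 145), beside 31.8% of all rows; the numbers do not pair the samples, and no named transcript changed its call under the block. In all, 41 of the 238 calls, 23 rises and 18 falls, held in every one of 15 other fits. The same share over all rows was not computed, so this count is no result about GenBank-named transcripts as a class.

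The median change of -0.073 became -0.088 over members detected on all arrays, -0.095 above the table's lowest values, 0.007 at the 75th percentile and -0.312 with normexp. Leaving out 1 sample gave -0.08 to -0.068. Normexp reversed 5 of the 26 named transcripts, AI507368 (-0.09), CA749839 (-0.12), AV320845 (-0.14), AV131371 (0.18) and BY652007 (0.07), and quantile normalization reversed AV131371 (0.02); the cause was not tested. Of the members, 37 were above background on no scanned array.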
